A study of Mus musculus with 3 samples.

Results

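Imprinted genes were described in wild-type mouse retina at postnatal day 7 (P7). The members were every probe set of the array whose single annotated gene was Igf2, H19, Peg3, Mest, Dlk1, Cdkn1c, Snrpn, Ndn, Plagl1 or Grb10. This gave 15 of 12422 probe sets, for 8 of the 10 genes, out of 8251 genes in all. The probe set of H19 was listed with 2 genes and was left out, and Snrpn was not analysed here. Total RNA of 3 samples was hybridised to Affymetrix MG-U74Av2 arrays, where 1 or several probe sets read a gene. Each sample pooled neural retinas of 3 to 4 wild-type mice that were littermates of Rp1-/- animals, in a mixture of the 129/SvEv and C57BL/6 strains, taken between 1 and 2 pm. The 3 samples formed 1 group, so no conditions were compared; they are called pools 1, 2 and 3, the numbers being names only. Nothing in the labels tells biological from technical spread between them, and the p-values below cover both.

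Imprinted genes are transcribed mainly from the copy inherited from a particular parent, a choice written as DNA methylation in the germ line and kept through cell division. Many act on growth before and after birth: paternally expressed genes such as Igf2 tend to promote it, and maternally expressed genes such as Cdkn1c to restrain it. Several stay on in neurons after birth. The arrays read the RNA of both parental copies together, so neither the parent of origin nor any loss of imprinting was measured. In RNA of a whole tissue, fewer cells of a type and less RNA per cell cannot be told apart.

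Promoter sequences were set beside the levels because imprints lie in CpG-rich DNA and because several members start from more than 1 promoter. The RefSeq table used, for GRCm38.p6, held 13 start sites for 7 of the 8 genes, all but Cdkn1c. The 250 bases before each start were searched. These windows held 1 to 40 CpG dinucleotides, with a median of 8, against a median of 6 over all 32851 windows. The windows of Grb10, which encodes an adaptor protein that binds the insulin and IGF1 receptors, are shown first, since they differed more in CpG count than the windows of any other member. The upstream window, at chr11:12037421-12037670 on the minus strand, had 40 CpGs, a count reached by 1.31% of all windows. The downstream window, at chr11:12027972-12028221 on the minus strand, had 8, reached by 43.0%. Capitals mark each CpG, 5′ to 3′.
Grb10 upstream: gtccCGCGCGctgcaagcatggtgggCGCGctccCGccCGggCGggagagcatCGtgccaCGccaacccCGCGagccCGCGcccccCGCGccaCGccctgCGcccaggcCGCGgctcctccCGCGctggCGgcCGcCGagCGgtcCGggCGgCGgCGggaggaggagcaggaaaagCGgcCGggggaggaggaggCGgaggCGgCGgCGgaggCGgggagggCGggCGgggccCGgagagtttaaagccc
Grb10 downstream: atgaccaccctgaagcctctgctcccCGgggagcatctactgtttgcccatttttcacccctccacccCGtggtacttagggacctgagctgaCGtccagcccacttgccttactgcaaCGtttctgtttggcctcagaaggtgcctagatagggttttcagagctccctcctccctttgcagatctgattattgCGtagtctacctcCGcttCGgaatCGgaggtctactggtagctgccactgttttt

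The letters TGCCGC, read on both strands so that GCGGCA also counts, are the core bound by ZFP57, a zinc finger protein that keeps methylation at imprinted loci. They stood in 8.68% of all windows. Among the 7 member genes with a window, Mest and Plagl1 had them, in 3 of the 13 windows. Cdkn1c had no window to search. The Mest window printed below, at chr6:30737800-30738049 on the plus strand, had 2 copies, a number reached or passed by 0.874% of all windows. Another Mest window, starting at base 30737803, overlaps it almost whole and holds the same 2 copies. The Plagl1 window, at chr10:13090582-13090831 on the plus strand, had 1 copy. Capitals mark the match, 5′ to 3′.
Mest: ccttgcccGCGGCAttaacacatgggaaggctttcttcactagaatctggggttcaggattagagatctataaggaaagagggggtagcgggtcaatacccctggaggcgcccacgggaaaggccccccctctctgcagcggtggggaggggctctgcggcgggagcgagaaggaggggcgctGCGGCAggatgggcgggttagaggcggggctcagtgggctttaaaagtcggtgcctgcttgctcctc
Plagl1: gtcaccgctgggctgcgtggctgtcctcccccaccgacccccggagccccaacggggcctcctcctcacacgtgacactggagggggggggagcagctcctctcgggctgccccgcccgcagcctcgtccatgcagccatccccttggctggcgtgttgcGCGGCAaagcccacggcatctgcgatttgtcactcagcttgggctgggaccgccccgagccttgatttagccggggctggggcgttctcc
A match is a string of letters and no measured binding. The motif GGGGCCCC, a sequence that the PLAGL1 protein is known to bind, was in 0.889% of all windows. Among the 13 it was found in that of Peg3, at chr7:6730420-6730669 on the minus strand.

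Levels are scaled intensities, in arbitrary units: the deposited values were set to a common median per array and floored at 42.2. A probe set was called above background where it passed, in a pool, the 90th percentile of 61 measured genes specific to other organs (liver, pancreas, testis and others). This bar was 328, 365 and 311 in pools 1, 2 and 3. Each gene was first read by 1 chosen probe set, one without a letter suffix in its name before any other and then the brightest. By that reading 4 of the 8 genes, Ndn, Peg3, Cdkn1c and Mest, were above background in all 3 pools, and 42.4% of all genes were. By any of a gene's probe sets there were 5, Igf2 being added, against 43.9% of all genes. Both shares of the members were near the background and do not set them apart. Dlk1 would join without pool 1 and Plagl1 without pool 2. With the 75th percentile as the bar, 7 of the 8 passed, as did 57.8% of all genes. Of the 15 probe sets 8 passed in all pools, against 35.8% of all probe sets. Probe sets bind with different efficiency, so levels of different genes were not ranked.

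**Figure D1:**
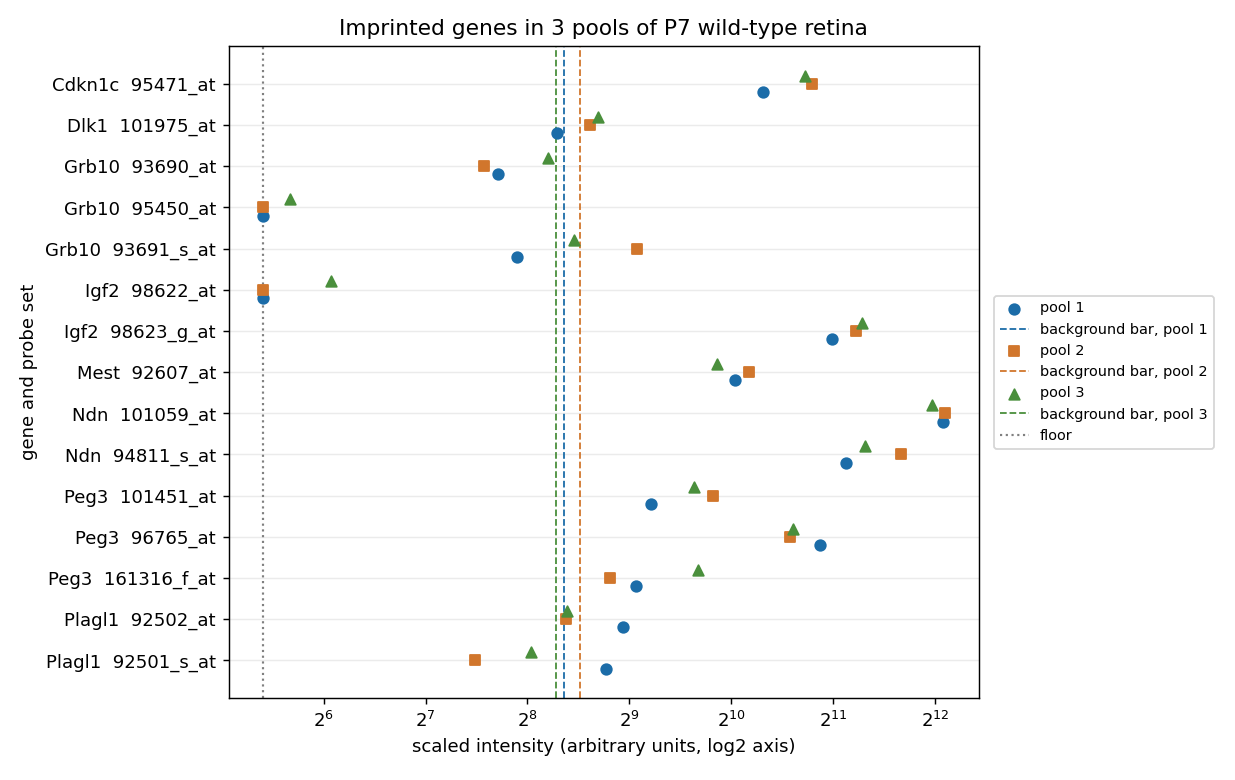
Scaled intensity (log2 axis) of all 15 probe sets, by gene, in pools 1, 2 and 3 (points), with the background bar of each pool (dashed, 328, 365 and 311) and the floor (dotted, 42.2). Ndn, Peg3, Cdkn1c, Mest and 1 of the 2 Igf2 probe sets lie right of the bars in every pool, whereas no probe set of Dlk1, Plagl1 or Grb10 does, and Grb10 95450_at and Igf2 98622_at lie at or near the floor.

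Ndn encodes necdin, a protein of the MAGE family that is made in postmitotic neurons and restrains their return to the cell cycle. It is expressed from the paternal copy, in the cluster lost in Prader-Willi syndrome. Its chosen probe set 101059_at had intensities of 4318, 4390 and 4011 in pools 1, 2 and 3, a mean of 4240 ± 201 (SD, n = 3 pools, as for each such value below). The pools were close, with an SD of 0.07 on the log2 scale against 0.28 expected for probe sets of that brightness. The second probe set, 94811_s_at, was at 2242, 3263 and 2551 (2685 ± 524), with pool 2 the high one. Its log2 SD, 0.28, was that expected.

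Peg3 encodes a large zinc finger protein, expressed from the paternal copy and abundant in brain. All 3 of its probe sets were above background in every pool, but they placed the pools in different orders. The chosen probe set 96765_at was at 1880, 1524 and 1560 (1655 ± 196), highest in pool 1. Probe set 101451_at was at 594, 904 and 794 (764 ± 157), lowest in pool 1. Probe set 161316_f_at, of a type that can be shared within a gene family, was at 536, 448 and 817 (600 ± 193), highest in pool 3. The 3 orders were the same without scaling and after quantile normalisation. Thus it cannot be told which pool, if any, was high or low for Peg3 as a gene.

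Mest, known as Peg1, encodes a protein of the alpha/beta hydrolase fold and is expressed from the paternal copy in embryonic mesoderm and brain. Its only probe set was at 1055, 1152 and 927 (1045 ± 113). The values lay within 1.24-fold of each other, and the log2 SD was 0.16 against 0.28 expected.

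Igf2 encodes insulin-like growth factor 2, a paternally expressed growth factor of the fetus that in the adult brain is largely made by choroid plexus, meninges and vessels. Its 2 probe sets did not give the same reading. Probe set 98623_g_at was at 2034, 2400 and 2496 (2310 ± 244), above background in all pools and with a log2 SD of 0.16. Probe set 98622_at, which the annotation lists with the same source sequence, was at the floor in pools 1 and 2 and at 67.0 in pool 3, below background in each. Since the rule for choosing took the name without a suffix, Igf2 counts as not above background by its chosen probe set. Which of them reads Igf2 RNA better was not tested.

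Igf2 is made outside the neural retina too, so markers of adhering tissues were read on the same arrays. The counts that follow stand beside 42.4% of all genes above background in all pools. The connective tissue and muscle list had 4 of 21 measured genes above it, and its summed intensity was 4910, 6145 and 4793 in pools 1, 2 and 3. Of its collagen and fibroblast genes, Col1a1 (369, 570 and 404), Col5a1 (658, 591 and 755) and Col6a1 (1119, 1095 and 1006) were above background in all pools. The other measured ones, Col1a2, Col3a1, Col6a2, Lum, Dcn, Postn and Fbln2, were below it in every pool. These genes were singled out after their values were seen. The vascular list had 5 of 14 above background, with sums of 7175, 6822 and 6787. The pigment epithelium and choroid list had 1 of 7, the gene Rlbp1, which Müller glia express as well. Its sums were 4034, 4154 and 3578. The lens list had 6 of 12 measured genes above background in all pools, and all 6 were lowest in pool 1, as probe set 98623_g_at was, except after quantile normalisation (2163, 2118 and 2642). Summed lens intensities were 26974, 127542 and 136902 in pools 1, 2 and 3. In the test of excess spread given below, 13 of the 14 lens probe sets tested were called, against 1.34% of all tested. These calls depend on the processing. Over all probe sets the calls fell from 83 to 6 without scaling, to 6 after quantile normalisation and to 0 with dim probe sets kept. The part of these tissues in the Igf2 signal was not tested.

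Cdkn1c encodes p57Kip2, an inhibitor of cyclin-dependent kinases that is expressed from the maternal copy and accompanies cell cycle exit of retinal progenitors. Its probe set was at 1274, 1773 and 1696 (1581 ± 268). Pool 1 was the low one, 1.39-fold below pool 2, and the log2 SD of 0.26 was below the 0.28 expected. The lens sums given above were lowest in pool 1 too. Lens fibres are known to express Cdkn1c; the part of lens RNA in its lower value in pool 1 was not tested. Without pool 1, the remaining pools differed for Cdkn1c by 0.06 on the log2 scale.

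No probe set of Dlk1, Plagl1 or Grb10 passed the background bar in all 3 pools. Dlk1 encodes a transmembrane protein with EGF-like repeats, related to the Notch ligands and expressed from the paternal copy. Its probe set was at 312, 392 and 414 (372 ± 53.5), above background in pools 2 and 3. It was lowest in pool 1 and below background there, so its distance from the other pools does not rest on measured levels. The lens list was lowest in pool 1 too, as were 1755 of all 4448 probe sets above background in every pool. The part of lens RNA was not tested.

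Plagl1, or Zac1, encodes a paternally expressed zinc finger transcription factor that is active in retinal progenitors and binds other imprinted genes. Its chosen probe set 92502_at was at 491, 332 and 336 (386 ± 90.5), and 92501_s_at was at 437, 179 and 262 (292 ± 132). Both were highest in pool 1 and lowest in pool 2, in every scaling tried. The second had the widest log2 SD among the tested members, 0.65 against 0.38 expected, with 2.44-fold between pools 1 and 2. In pools 2 and 3 it was below background, so this ratio does not rest on measured levels at both ends.

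Grb10, whose promoters are printed above, is known to be expressed from the maternal copy in most tissues and from the paternal copy in neurons. Its chosen probe set 93690_at was at 210, 190 and 295 (232 ± 55.9), below background in each pool. The set 93691_s_at was at 238, 539 and 351 (376 ± 152), above it in pools 2 and 3, and its log2 SD was 0.59 against 0.34 expected. The remaining one, 95450_at, was at the floor in pools 1 and 2 and at 50.8 in pool 3. With most of these values below the bar, the order of the pools is not a measurement. Promoter use cannot be read from these probe sets.

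Over the 13 member probe sets bright enough to be tested, the range between pools was at most 2.44-fold, and 2 exceeded 2-fold (15.4%, against 8.63% of all tested probe sets). Both, Plagl1 92501_s_at and Grb10 93691_s_at, had their lowest value below background. Of the 8 member probe sets above background in all pools 0 exceeded 2-fold, against 4.0% of all such probe sets. With 3 arrays, limma's test of excess spread misses most differences of about 2-fold, so a lack of calls among the members says little about their stability. In this test of excess spread, 0 of the 13 passed an adjusted p of 0.05, and 0 had an unadjusted p below 0.05, against 6.76% of all probe sets tested. Of all 6211 probe sets tested, 83 passed, or 1.34%, and 13 of these 83 were of the lens list. A count of 0 among the 13 members is thus near the background. The lowest adjusted p among the members was 0.754, for Grb10 93691_s_at, and 0.540 to 0.989 was the range of that lowest value over all settings tried. The log2 SD exceeded that expected for 4 of the 13, Plagl1 92501_s_at, Grb10 93691_s_at and the Peg3 probe sets 161316_f_at and 101451_at, or 30.8% of them, against 36.0% of all probe sets tested. The median log2 SD was 0.28 for the 13 and 0.26 for all.

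**Figure D2:**
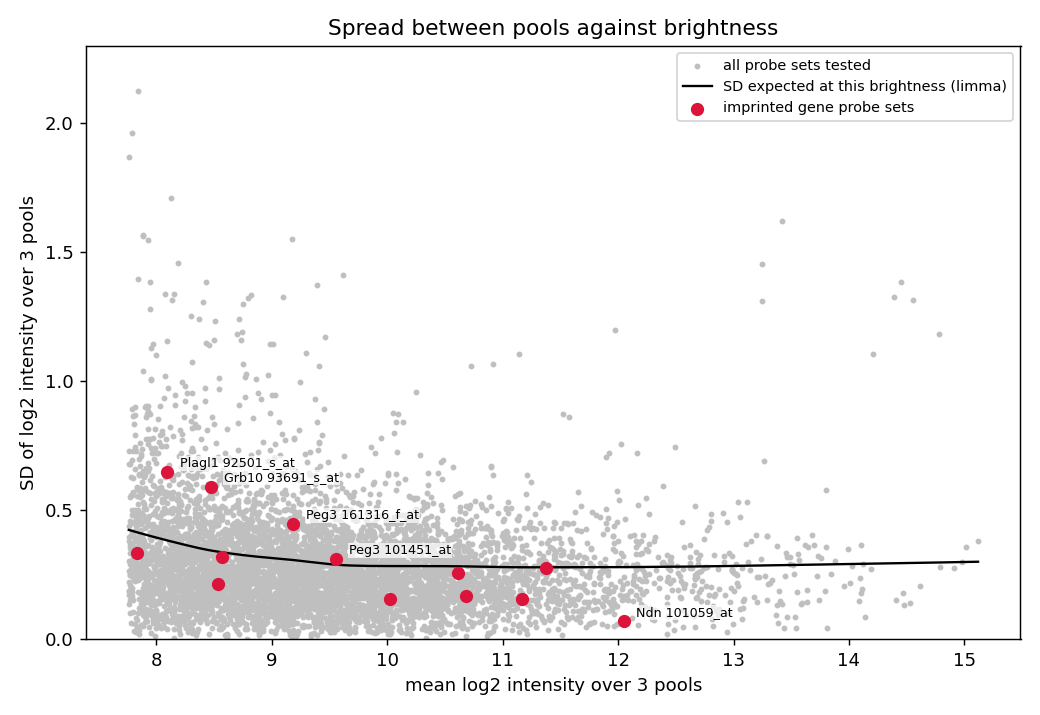
SD of the log2 intensity over 3 pools (vertical axis) against the mean log2 intensity (horizontal axis) for all 6211 probe sets tested (grey), with the SD limma expects at each brightness (line) and the 13 member probe sets (red). The members lie within the grey cloud, from 0.07 for Ndn 101059_at to 0.65 for Plagl1 92501_s_at.

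The lowest and the highest pool differed from member to member. Among the 8 probe sets that passed the bar everywhere, 4 had their minimum in pool 1, 2 in pool 2 and 2 in pool 3, and 1, 5 and 2 had their maximum there. Of all 4448 such probe sets, the minimum was in pools 1, 2 and 3 for 1755, 635 and 2058 and the maximum for 1083, 2560 and 805. Their median log2 deviations from the mean over pools were -0.15, 0.10 and 0.01 in pools 1, 2 and 3. Over all of those probe sets the medians were -0.05, 0.13 and -0.09. Scaling shifted the arrays by -0.06, 0.12 and -0.06 on the log2 scale, which is as large as several of these differences. Accordingly 4 of the 8 kept both their lowest and their highest pool without scaling and after quantile normalisation. The others were Cdkn1c, Igf2 98623_g_at, Mest and Ndn 101059_at. As deposited, for instance, Ndn 101059_at was at 4489, 4031 and 4182, with pool 2 the lowest and not the highest.

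**Figure D3:**
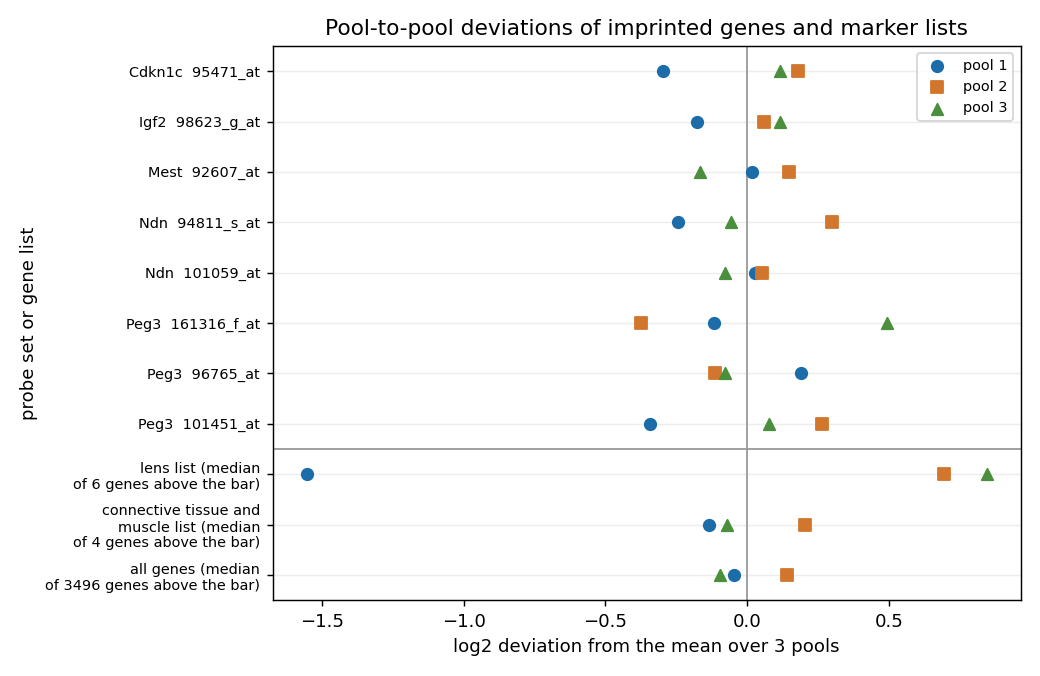
Log2 deviation of each pool from the mean over 3 pools (horizontal axis) for the 8 member probe sets above background in every pool, and below the line the median of the lens list (6 genes), of the connective tissue and muscle list (4 genes) and of all 3496 genes above background. Members stay between -0.38 and 0.49, while the lens list is at -1.55 in pool 1.

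Cdkn1c, the member with the widest spread among chosen probe sets above background, was set against the other 3495 such genes by the Euclidean distance of their log2 deviations over the 3 pools. The nearest were B4galt1, a galactosyltransferase gene, at 0.010, Adh5, an alcohol dehydrogenase gene, at 0.013, and Nfib, a transcription factor gene, at 0.019. There were 103 genes within a distance of 0.1. With 3 arrays of 1 group such likeness is a description.

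Among further genes known to be imprinted in the mouse, 9 of 36 measured ones were above background in all pools, with 42.4% of all genes above it. Neither the difference nor its cause was tested. For many of these genes it is the imprinting that is known mainly from placenta. Nnat, which encodes neuronatin, a small membrane protein of developing neurons, was at 9402, 14771 and 14316 (12830 ± 2977). Sgce, the epsilon-sarcoglycan gene, was at 1073, 1353 and 970 (1132 ± 198). Blcap, within whose intron Nnat lies, was at 912 ± 142, and Commd1, a gene of copper handling, at 517 ± 51.9. Meg3, a maternally expressed noncoding RNA of the Dlk1 cluster, was at 2713, 3879 and 2071 (2888 ± 917), and was singled out after its values were seen. Against 1.34% of all tested probe sets, 1 of the 17 tested ones of these genes had excess spread. That was Osbpl5, an oxysterol-binding protein gene of the Cdkn1c cluster, at 625, 707 and 161 (limma adjusted p = 0.000708), its pool 3 value being below background. It lost the call without pool 2 (adjusted p = 0.573), without pool 3 (0.996), without scaling (0.351), after quantile normalisation (0.245) and with dim probe sets kept (0.898).

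Genes of IGF signalling were above background for 10 of 20 measured, a share near the 42.4% of all genes. Igf1r, the receptor through which IGF2 signals, was at 2038, 1895 and 1948 (1960 ± 72.4), and Igf1 at 842 ± 87.7. Grb2, an adaptor gene, was at 726 ± 58.4 and Igfbp2, a binding protein gene, at 833 ± 83.4. Igf2r, an imprinted gene whose product clears IGF2, was at 476, 354 and 444, below background in pool 2. With 1.34% of all tested probe sets called, 1 of the 16 tested here had excess spread. It was from Pik3r1, a regulatory subunit gene of phosphoinositide 3-kinase, lowest in pool 1 at 549, 1701 and 1406 (limma adjusted p = 0.0103). The call was lost without pool 1 (adjusted p = 0.983), without pool 2 (0.587), without scaling (0.372), after quantile normalisation (0.258), with dim probe sets kept (0.898) and without limma's robust option (0.112).

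Genes that keep imprints or read them were above background for 8 of 15, with 42.4% of all genes above it. Among these Dnmt1, the maintenance methyltransferase gene, was at 1911 ± 216. Trim28, the corepressor gene that works with ZFP57, was at 5741, 9014 and 7433 (7396 ± 1637). Ctcf, the gene of the insulator protein at the Igf2 and H19 locus, was at 807 ± 110, and Setdb1, a histone methyltransferase gene, at 811 ± 124. Zfp57 itself was below background in each pool, at 185, 56.7 and 50.5. None of the 9 probe sets tested here passed limma's adjusted p for excess spread, against 1.34% of all tested. Beside Cdkn1c, 2 of the 6 other measured inhibitors of cyclin-dependent kinases were above background, Cdkn1a at 434 ± 62.5 and Cdkn2d, which holds neurons out of the cycle, at 984 ± 54.6.

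The labelled tissue was checked by its markers. Above background in all pools were 9 of 11 measured rod genes and 10 of 12 genes of inner neurons and Müller glia, against 42.4% of all genes. Of the 13 rod probe sets tested, 3 had excess spread, against 1.34% of all tested, so the rod genes were not all even between pools. The lens list had 6 of 12, with the sums given above, so the check does not exclude adhering tissue. The red blood cell list had 1 of 8, the gene Hba-a1, at 2914, 6705 and 2821 in pools 1, 2 and 3. The summed intensity of the list was 3571, 7281 and 3687, most of it from Hba-a1. The other 7 genes were above background in no pool. Hba-a1 was not called for excess spread (limma adjusted p = 0.107). Any reading of blood RNA in these pools thus rests on 1 gene.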

How the data were processed

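Total RNA of 3 pools of P7 wild-type mouse retina was measured on 1-colour oligonucleotide arrays. The authors deposited 1 linear intensity for each probe set and array. The sources used here do not give how it was computed from the scans. The arrays had already been brought to a common level by the authors, since after trimming 2% at either end the mean deposited intensity was 500.2, 500.3 and 500.2. The number of arrays limits the precision of every value.

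Of 12488 probe sets, 66 controls were left out. Of the rest 10833 had 1 gene in the platform annotation, 396 several (given no name) and 1193 were unnamed here; 10817 symbols were matched by gene ID in a RefSeq table of GRCm38.p6. Each array was scaled to the mean of the 3 medians (factors 0.962, 1.09 and 0.959), floored at the 20th percentile of all values and put on the log2 scale. Excess spread was tested on the brighter 50% of probe sets with limma 3.58.1 (R 4.3.3): each variance was set against the prior from squeezeVar (robust, with mean level as covariate) at its highest prior degrees of freedom, 279, and upper-tail p-values were adjusted by Benjamini-Hochberg over all 6211. It was tested on simulated data with normal noise, where it missed nearly all changes of 2-fold in 1 array and found most of 4-fold and above.

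The members and lists were chosen with earlier results of these data known. Named genes were all members; from each other list the first 4 in written order above background and those with excess spread, lists of markers and unrelated tissues being given here as counts and sums; and the 3 genes nearest in pattern. Igf2r, Meg3, Zfp57, Col1a1, Col1a2, Col3a1, Col5a1, Col6a1, Col6a2, Lum, Dcn, Postn, Fbln2, Rlbp1 and Hba-a1 were named after their values were seen. Summaries used Python 3.11.15.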

Additional observations from a re-analysis of the deposited data

How the results depend on the processing

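The counts were recomputed under other bars, scalings, filters and floors, the variance prior without limma's robust option, another choice of probe set, and without each pool. With the 75th percentile as bar, the members above background rose in number from 4 to 7 (Dlk1, Plagl1 and Grb10 joining) and the other imprinted genes from 9 to 14, as all genes did to 57.8%. At the 95th percentile there were 4 members, 6 other imprinted genes and 28.6% of all genes. Leaving out each pool gave 4 to 5 members and 9 to 10 other imprinted genes. By any probe set, an alternative chosen after seeing the data, there were 5 members. The member count with excess spread was 0 under each of the settings run, while unadjusted p-values below 0.05 numbered 2 without the filter on dim probe sets, 1 without pool 1 and 2 without pool 3. The single other imprinted probe set with excess spread, of Osbpl5, was 0 without scaling, 0 after quantile normalisation, 0 without the filter and 0 in the brighter 25% of probe sets, where it was too dim to be tested, and ranged from 0 to 1 on leaving out single pools. The cause of the others was not tested. Over all probe sets the 83 calls became 6 without scaling, 6 after quantile normalisation, 0 without the filter (1113 at an unadjusted p below 0.05), 27 in the brighter 25%, 38 without the robust option and 30, 9 and 23 without pools 1, 2 and 3, so the background share of calls moves as widely. Of 90 recomputed mean levels of members 3 moved by more than the SD between pools, and of 90 ranges 22 did. No paired analysis was possible because there was 1 group. Values near the floor limit what can be said of Grb10 95450_at and Igf2 98622_at.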
